A study of Mus musculus with 9 samples.

Results

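T and natural killer (NK) lymphocyte transcripts were examined in RNA-seq libraries of mouse peritoneal macrophages isolated by flow cytometry. The set holds 34 genes, chosen by gene symbol: every row of the count tables whose Ensembl identifier carries one of the listed symbols in GENCODE mouse M21, 34 of 47729 rows in all. All 34 had reads, and 31 passed the filter on low counts. The study has 9 libraries, 3 in each of 3 groups, and all mice carried Cx3cr1CreERT2-IRES-EYFP and Rosa26-stopfl-tdTomato, each on 1 allele. In that design a tamoxifen-inducible Cre under the Cx3cr1 locus switches on tdTomato, which marks cells that were Cx3cr1-positive while tamoxifen was given. Every mouse received complexes of 5 µg IL-4 with 25 µg of antibody against IL-4, every other day from 4 days before harvest, so no library comes from an animal without this cytokine. Converted libraries came from mice given 2 ml thioglycollate and fed a tamoxifen diet for 10 weeks until harvest. For resident libraries the labels name no treatment beyond the shared one. Monocyte-derived libraries came from mice harvested 4 days after 2 ml thioglycollate, an irritant that brings blood monocytes and other leukocytes into the cavity. The labels give neither the gates used for sorting, nor the age of the mice. Nor do they say whether the 3 libraries of a group stand for 3 mice. A p-value here is therefore set against the spread among libraries, and that spread may be technical.

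T cells recognise antigen through a receptor built from paired TCR chains and the CD3 chains, which carry the signal to the kinases Lck and Zap70. NK cells carry no rearranged TCR: they read target cells through receptors such as NKp46 and the NKG2 family and kill with perforin and granzymes, a programme that the T-box factors Eomes and T-bet drive and that CD8 T cells share. Both cell types occur in the peritoneal cavity beside macrophages and B cells. In bulk RNA, fewer cells of a type and less RNA per cell cannot be told apart.

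The libraries held 15220884 to 20496258 reads in genes. The 8 macrophage markers summed to 7129, 6334 and 7898 CPM in converted, 6898, 6681 and 6999 CPM in resident and 3833, 6514 and 5371 CPM in monocyte-derived libraries in CPM, the read count scaled to a common library size by the TMM method. Macrophage transcripts were thus found in every library, but the markers did not move together. Adgre1, Itgam and Mertk were higher in each converted and resident library than in any monocyte-derived one, and Fcgr1 and Lyz2 lower. The mean of Fcgr1 was 0.467 CPM in converted, 0.537 CPM in resident and 15.9 CPM in monocyte-derived libraries. The 10 B-cell markers summed to 66, 172 and 78.1 CPM in converted, 1103, 1208 and 1419 CPM in resident and 52.3, 33.7 and 76.3 CPM in monocyte-derived libraries. All 10 had reads. Monocyte-derived libraries also differed from both other groups in sex-linked transcripts: Ddx3y, on chromosome Y, had 0 reads in them and 84.5 to 96 CPM in converted and 85.8 to 93.3 CPM in resident libraries. Sex, the recent irritant and macrophage origin cannot be told apart in comparisons with that group, nor can the tamoxifen diet where converted libraries are compared with it. Between converted and resident libraries thioglycollate, the tamoxifen diet and macrophage origin cannot be told apart either. Monocyte-derived library 3 was the highest of its group for 29 of the 34 genes. Converted library 2 was the highest of its group for 26 and resident library 3 for 25. Called values of the 34 genes that move by over 1.5 times without monocyte-derived library 3 are given both ways, or with the ended call.

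The 34 transcripts were rare throughout. They summed to 16, 27.4 and 14.2 CPM in converted, 109.9, 94.6 and 138 CPM in resident and 72.4, 152 and 305 CPM in monocyte-derived libraries 1, 2 and 3, which is 253 to 523 reads per converted library, 1805 to 2820 per resident library and 1358 to 4719 per monocyte-derived library. Resident libraries had at least 1 read of every gene in each library, while 23 of the 34 genes were read in all 3 converted libraries and 29 in all 3 monocyte-derived libraries. The mean level was highest in resident libraries for 18 genes, in monocyte-derived libraries for 16 and in converted libraries for none, and converted libraries had the lowest mean for 29 of the 34. The split followed the roles of the genes: all 7 TCR and CD3 genes were highest in resident libraries, and all 12 genes of NK receptors, cytotoxic granules, T-box factors, Il2rb and Ccl5 were highest in monocyte-derived libraries. Library 3 carried part of that second block: with it left out, 7 of the 12 genes had their highest mean in monocyte-derived libraries, Ncr1, Nkg7, Eomes, Tbx21 and Il2rb had it in resident libraries, and all 7 TCR and CD3 genes were still highest in resident libraries. Over all 34 genes the mean was then highest in resident libraries for 23 and in monocyte-derived libraries for 11. The mean sum of the set was 114.1 CPM in resident libraries, against 176.7 CPM in all 3 monocyte-derived libraries and 112.4 CPM in monocyte-derived libraries 1 and 2. The heat map of all 34 genes shows these blocks, and the plot of summed role groups shows how far the libraries of a group spread.

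**Figure D1:**
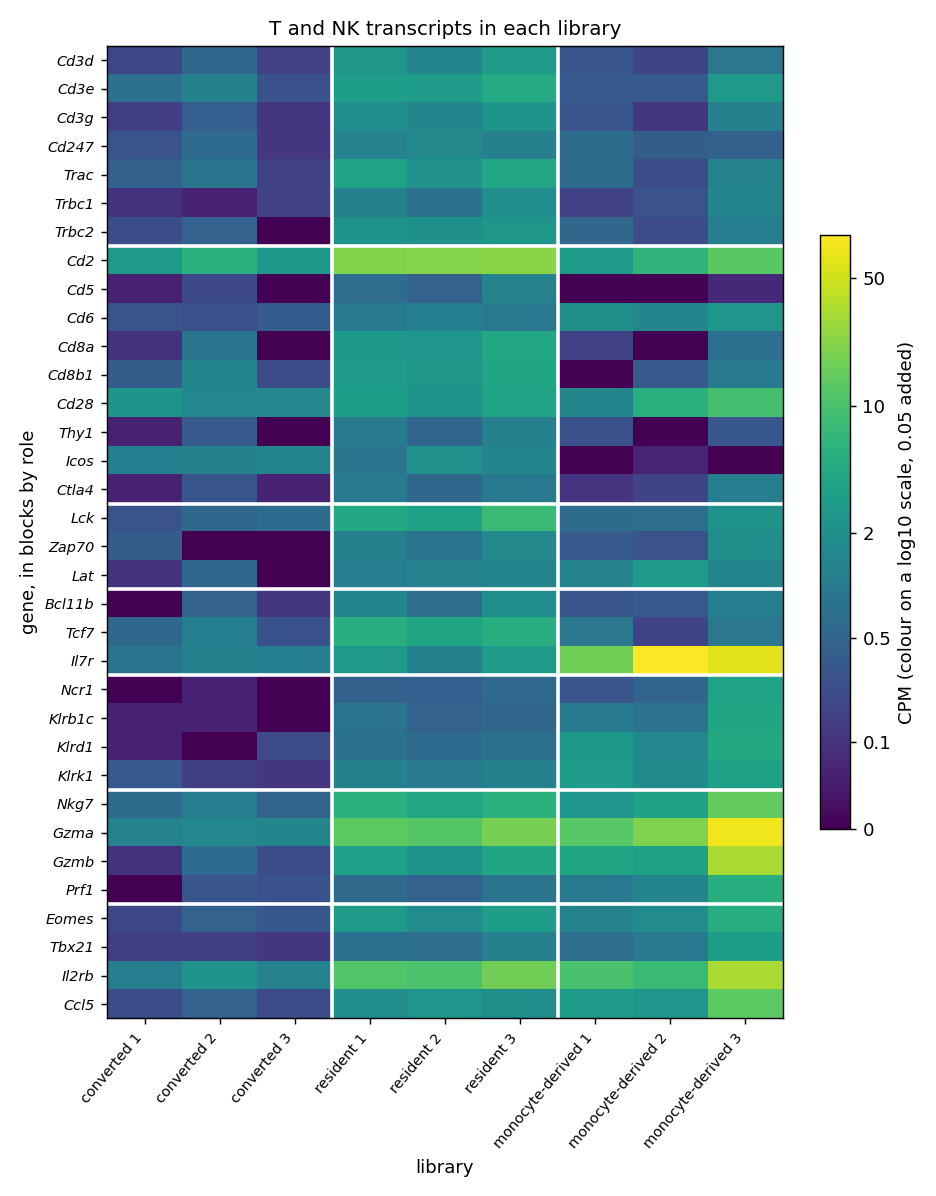
Level of each of the 34 genes (rows, in blocks by role) in each of the 9 libraries (columns), coloured by CPM on a log10 scale after adding 0.05. The top block, the TCR and CD3 chains, is brightest in the resident libraries, the lower 3 blocks are brightest in monocyte-derived library 3, and the converted columns are dark for most genes.

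**Figure D2:**
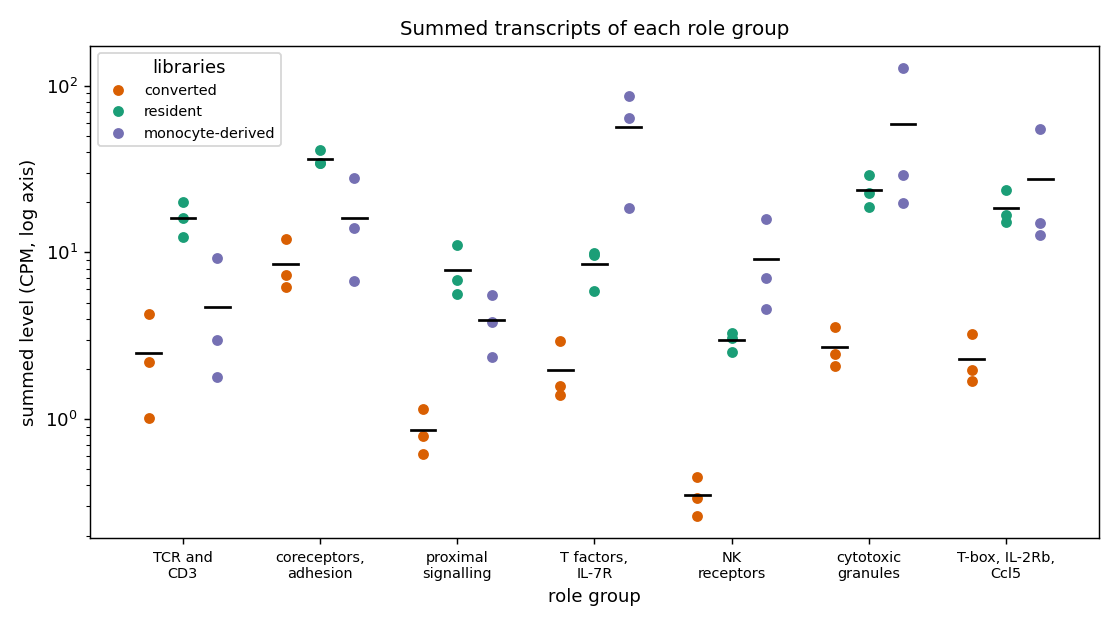
Summed CPM of the genes of each role group (log axis), with 1 point per library and a bar at the mean of the 3 libraries. Converted libraries lie lowest in each role group except TCR and CD3 chains and the coreceptor group, where they overlap the monocyte-derived libraries.

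In the comparison of converted with monocyte-derived libraries, 15 of the 31 tested genes fell, 1 rose and 15 were not called (edgeR quasi-likelihood test, adjusted p under 0.05 over all 13223 genes tested). Of all genes tested 24.9% were called lower and 25.8% higher, and the median log2 change was -2.44 for the 31 genes beside -0.01 for all genes. In resident against monocyte-derived libraries 11 rose, 6 fell and 14 were not called, where 25.7% of all genes were called higher and 24.9% lower. The medians were 0.55 and 0.00. In converted against resident libraries 15 fell, none rose and 16 were not called, where 4.26% of all genes were called lower and 1.82% higher. The medians were -2.77 and 0.01. At an unadjusted p under 0.05 edgeR gave 0 higher and 27 lower in that comparison, DESeq2 called 0 and 24, and limma-voom 0 and 16. The first and second comparisons share the monocyte-derived libraries, and the first shares the converted ones with the comparison against resident libraries. The 3 genes below the filter (Cd5, Thy1 and Ncr1) were not tested, and a gene that passed only through the group where it was high is bound to differ, so the counts describe these genes and no more. Among called genes, Cd3d, Cd3g, Cd247, Trbc1, Trbc2, Cd8a and Cd8b1 passed only through the resident libraries. Klrb1c and Prf1 passed only through the monocyte-derived libraries.

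The converted versus resident calls depended on which libraries were in the fit. The 15 genes called lower became 2, 12 and 2 without converted library 1, 2 or 3, and 1, 9 and 1 without resident library 1, 2 or 3, while calls of lower genes over all genes became 221 to 447 in these fits, against 563 with all libraries. Without monocyte-derived library 1, 2 or 3, which contribute only to the estimate of spread, 21, 18 and 22 genes were called. The values themselves did not overlap for 28 of the 31 tested genes, each library of the converted group lying below each of the resident group, against 17.7% of all genes tested. The resident versus monocyte-derived counts moved too: 6 genes were called higher without resident library 3, and the 6 called lower became 2 without resident library 1, 2 or 3 or monocyte-derived library 3, 3 without converted library 2 or 3 and 10 without monocyte-derived library 1.

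**Figure D3:**
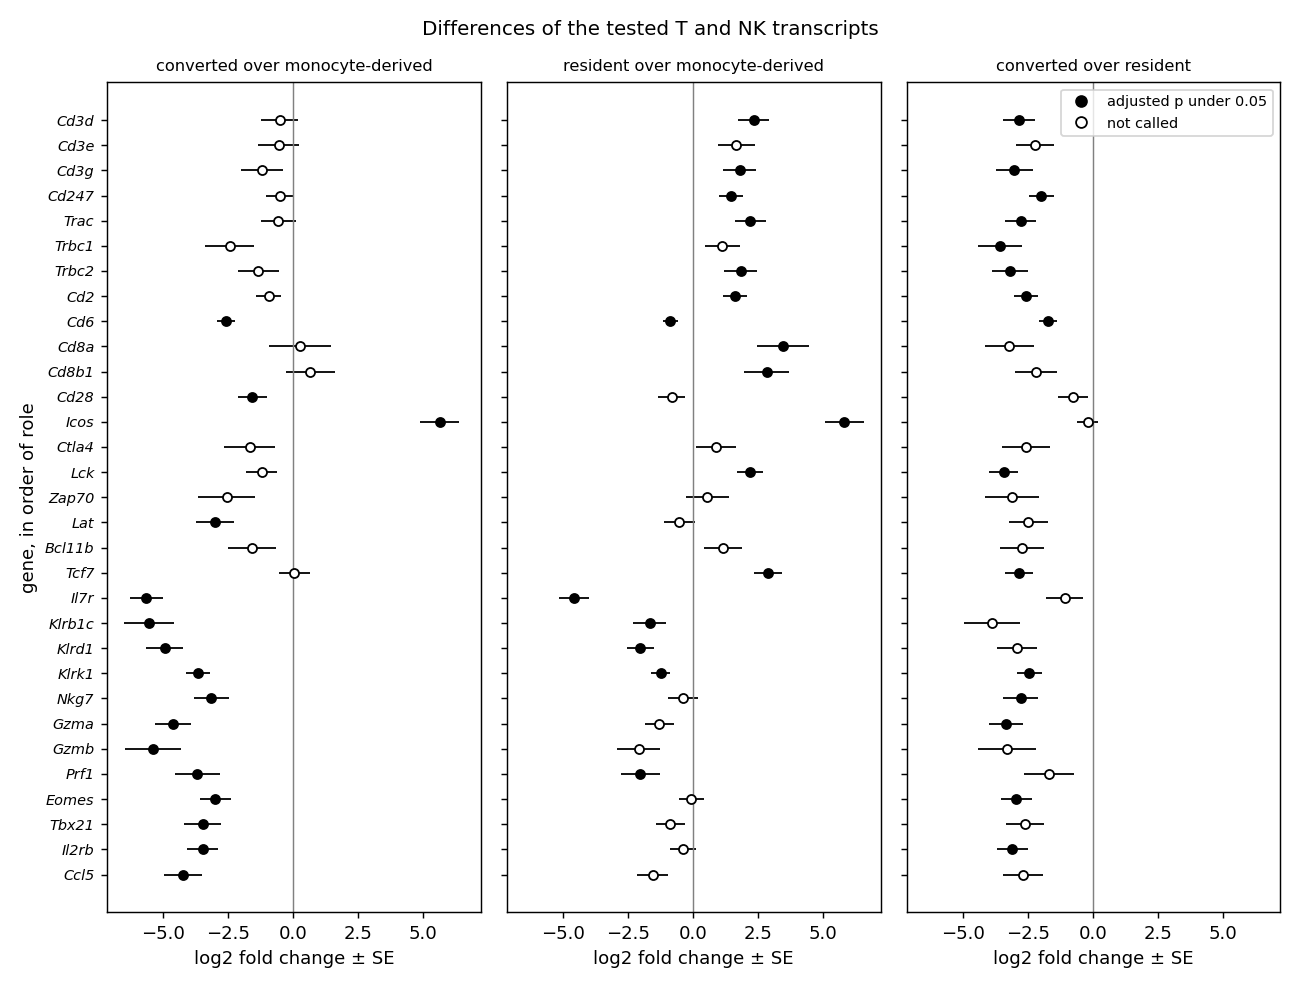
Log2 fold change with its standard error for the 31 tested genes in the 3 comparisons (edgeR quasi-likelihood fit of 9 libraries), filled where the adjusted p was under 0.05. Genes of the T-cell receptor lie right of 0 for resident over monocyte-derived libraries and NK and granule genes lie left of 0 for converted over monocyte-derived libraries; for converted over resident libraries all 31 points lie left of 0.

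The TCR and CD3 chains rose in resident relative to monocyte-derived libraries for 5 of 7 genes and were called in neither direction for converted relative to monocyte-derived libraries. All but Cd3e and Trac passed the filter only through the resident libraries, so their calls against that group are no independent tests. Cd3d, Cd3e and Cd3g encode the CD3 chains and lie side by side on chromosome 9, between 44969572 and 45009627. Cd3d (ENSMUSG00000032094, GRCm38 chromosome 9, 44981786 to 44987339) had 0.199, 0.577 and 0.169 CPM in converted libraries 1, 2 and 3, 2.53, 1.42 and 2.98 CPM in resident libraries 1, 2 and 3, and 0.32, 0.173 and 0.906 CPM in monocyte-derived libraries 1, 2 and 3. Resident libraries were the highest 3 of the 9, and converted and monocyte-derived libraries overlapped. Its change was log2 -2.85 ± 0.61 SE, adjusted p = 0.0254 for converted over resident libraries and log2 2.33 ± 0.59 SE, adjusted p = 0.00806 for resident over monocyte-derived libraries. Cd3g had 0.149, 0.42 and 0.112 CPM in converted, 1.87, 1.42 and 2.35 CPM in resident and 0.32, 0.116 and 1.23 CPM in monocyte-derived libraries, again highest in the resident group. The change was log2 -3.01 ± 0.72 SE, adjusted p = 0.0385 for converted over resident libraries. For resident over monocyte-derived libraries it was log2 1.79 ± 0.65 SE, adjusted p = 0.0415. Cd3e had 0.747, 1.26 and 0.281 CPM in converted, 3.13, 3.04 and 4.64 CPM in resident and 0.373, 0.346 and 2.78 CPM in monocyte-derived libraries, where monocyte-derived library 3 lay just under the lowest resident library. It was called neither for converted over resident (adjusted p = 0.121) nor for resident over monocyte-derived libraries (adjusted p = 0.0805). Cd247 encodes the zeta chain, which NK cells also use to couple their receptors. It had 0.299, 0.63 and 0.112 CPM in converted, 1.32, 1.62 and 1.22 CPM in resident and 0.639, 0.404 and 0.453 CPM in monocyte-derived libraries and was called for converted over resident (log2 -1.97 ± 0.48 SE, adjusted p = 0.0417) and resident over monocyte-derived libraries (log2 1.46 ± 0.46 SE, adjusted p = 0.0241). Exons of Cd247 share 3007 bases with Pou2f1 on the other strand, so its reads cannot be assigned with certainty.

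Trac encodes the constant part of the TCR alpha chain and Trbc1 and Trbc2 those of the beta chain. Trac (ENSMUSG00000076928, GRCm38 chromosome 14, 54220521 to 54224206) had 0.448, 0.84 and 0.169 CPM in converted, 3.74, 2.1 and 4.3 CPM in resident and 0.639, 0.231 and 1.36 CPM in monocyte-derived libraries, with all resident above all other libraries. The change was log2 -2.77 ± 0.61 SE, adjusted p = 0.0287 for converted over resident libraries. For resident over monocyte-derived libraries it was log2 2.20 ± 0.59 SE, adjusted p = 0.0109. Trbc2 had 0.249, 0.472 and 0 CPM in converted, 2.2, 2.04 and 2.54 CPM in resident and 0.533, 0.231 and 1.16 CPM in monocyte-derived libraries, and the resident libraries were again apart from both other groups (log2 -3.18, adjusted p = 0.0295 for converted over resident; log2 1.83, adjusted p = 0.0338 for resident over monocyte-derived). Trbc1 had 0.0996, 0.0525 and 0.169 CPM in converted, 1.26, 0.786 and 1.91 CPM in resident and 0.16, 0.289 and 1.42 CPM in monocyte-derived libraries; monocyte-derived library 3 overlapped the resident ones here (adjusted p = 0.191), and converted against resident was called (log2 -3.56, adjusted p = 0.0392). The beta constant genes are near-identical copies, so the split of reads between them is uncertain. For converted over monocyte-derived libraries, 0 of the 7 genes were called by edgeR, 1 had an unadjusted p under 0.05, DESeq2 called 1 and limma-voom 0; without monocyte-derived library 3 the log2 changes of Cd3d, Cd3e, Cd3g and Trac turned positive (0.34, 1.08, 0.05 and 0.15).

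Without monocyte-derived library 3 the resident over monocyte-derived log2 changes of Cd3d, Cd3g, Trac and Trbc2 were 3.18, 3.05, 2.92 and 2.53. Without converted library 2, the highest of its group, the converted over resident changes of Cd3d, Cd3g, Cd247, Trac and Trbc2 were -3.60, -3.77, -2.69, -3.40 and -4.05, and by limma-voom that of Trbc2 was -3.83. Cd3e and Trbc1 were not called for resident over monocyte-derived libraries with all libraries in the fit. Without monocyte-derived library 3 their adjusted p in that comparison was 0.00118 and 0.006.

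Of the 6 converted versus resident calls among these genes, those of Cd3d, Cd3g, Cd247, Trac, Trbc1 and Trbc2 all ended without converted library 1 or 3 or resident library 1 or 3 (adjusted p = 0.0647 to 0.154), those of Cd3g and Trbc1 without converted library 2 (0.0566 to 0.131), and those of Cd3g, Cd247, Trbc1 and Trbc2 without resident library 2 (0.0629 to 0.136). In resident against monocyte-derived libraries Cd3d and Trac kept their calls with any 1 library left out, while Cd3g did so only without converted library 2 or monocyte-derived library 3, and Cd247 and Trbc2 lost theirs without resident library 1, 2 or 3 or monocyte-derived library 2, Cd247 also without monocyte-derived library 3 and Trbc2 also without converted library 1 or monocyte-derived library 1 (adjusted p = 0.0527 to 0.131 over these fits).

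Among coreceptors and adhesion molecules the genes did not move together. Cd8a and Cd8b1, the chains of the coreceptor of cytotoxic T cells, followed the TCR genes. Cd8a had 0.0996, 0.892 and 0 CPM in converted, 2.64, 2.41 and 4.25 CPM in resident and 0.16, 0 and 0.712 CPM in monocyte-derived libraries. Cd8b1 had 0.398, 1.47 and 0.225 CPM in converted, 3.02, 2.52 and 4.01 CPM in resident and 0, 0.346 and 1.03 CPM in monocyte-derived libraries, so that for both genes the 3 resident libraries were above all others. Both rose in resident relative to monocyte-derived libraries (log2 3.45, adjusted p = 0.0166, and log2 2.84, adjusted p = 0.0199; 0.0603 and 0.0653 without resident library 3, and 0.0557 for Cd8b1 without monocyte-derived library 2) and were not called in converted relative to resident libraries (adjusted p = 0.0879 and 0.156). Without a filter on low counts the resident calls of Cd8a and Cd8b1 ended (0.0643 and 0.0587). Their log2 changes were 4.30 and 3.94 by limma-voom. Without monocyte-derived library 3 the changes of Cd8a and Cd8b1 were log2 5.12 and 4.20, and Cd8a kept 3 of its 14 monocyte-derived reads (adjusted p = 0.00874). Without monocyte-derived library 1 the change of Cd8b1 was log2 2.22. Converted library 2 had 17 of the 19 Cd8a reads and 28 of the 40 Cd8b1 reads of its group. Cd4, the coreceptor of helper T cells and not in the set, had 9 reads over the converted, 38 over the resident and 4 over the monocyte-derived libraries.

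Cd2, an adhesion receptor of T and NK cells that mouse B cells also carry, had the highest level per kilobase of exon in this role group. It had 2.89, 5.67 and 2.64 CPM in converted libraries 1, 2 and 3, 20.9, 22.2 and 23.1 CPM in resident libraries 1, 2 and 3, and 2.88, 6.35 and 12.6 CPM in monocyte-derived libraries 1, 2 and 3. Resident libraries were apart from the rest. The change was log2 -2.56 ± 0.47 SE, adjusted p = 0.0144 for converted over resident libraries. For resident over monocyte-derived libraries it was log2 1.61 ± 0.45 SE, adjusted p = 0.014. The call against resident libraries ended without converted library 1 or 3 or resident library 1 or 3 (adjusted p = 0.0506 to 0.0696). Without a filter on low counts Cd2 had an adjusted p of 0.0692 and 0.0632 in these comparisons, and without monocyte-derived library 3 its resident over monocyte-derived change was log2 2.26. The B-cell markers were also highest in resident libraries, and their part in the Cd2 level was not tested. Cd5, which T cells and the B-1a cells of the cavity carry, had 5 reads over the converted, 49 over the resident and 1 over the monocyte-derived libraries, a resident over monocyte-derived ratio of 43.8-fold, with a 95% counting interval of 7.49 to 1763 (counting error only). Thy1 had 8 reads over the converted, 53 over the resident and 10 over the monocyte-derived libraries, and each resident library was above all others for both genes.

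Icos, an inducible costimulator of T cells, Cd28, the receptor for B7 ligands, and Cd6, a CD5-like receptor, departed from the TCR genes. Icos (ENSMUSG00000026009, GRCm38 chromosome 1, 60977927 to 61000320) had 1.2, 1.26 and 1.41 CPM in converted libraries 1, 2 and 3, 0.824, 2.15 and 1.42 CPM in resident libraries 1, 2 and 3, and 0, 0.0578 and 0 CPM in monocyte-derived libraries 1, 2 and 3. Converted and resident libraries overlapped (adjusted p = 0.838), and both lay above all monocyte-derived libraries, where 1 read was found in all. The ratio to monocyte-derived libraries was 66.1-fold, with a 95% counting interval of 11.5 to 2646 for converted libraries (adjusted p = 0.000185), and 75.9-fold, with a 95% counting interval of 13.3 to 3032 for resident libraries (adjusted p = 0.000139). The 1 read lay in monocyte-derived library 2. A fit without that library leaves 0 reads in the group, so it is no check of the calls. Icos was the only one of the 31 tested genes called higher in converted libraries, while Cd3d, Trac and Cd8a in the same libraries did not differ in that direction by the test. Cd28 had 2.34, 1.57 and 1.52 CPM in converted, 3.24, 2.31 and 3.67 CPM in resident and 1.44, 5.54 and 9.44 CPM in monocyte-derived libraries, with overlapping groups, and fell in converted relative to monocyte-derived libraries (log2 -1.58 ± 0.55 SE, adjusted p = 0.0375). That call ended without converted library 1, 2 or 3, resident library 1 or 3 or monocyte-derived library 2 or 3 (adjusted p = 0.0523 to 0.157; log2 -0.93 in the last of these), and by limma-voom, without a filter on low counts and in a 2-group fit (0.162, 0.0918 and 0.0763). Cd6 had 0.299, 0.262 and 0.394 CPM in converted, 1.04, 1.21 and 0.929 CPM in resident and 1.92, 1.44 and 2.46 CPM in monocyte-derived libraries, a stepwise order in which no groups overlapped. It fell in converted relative to monocyte-derived (log2 -2.58 ± 0.35 SE, adjusted p = 0.000192), in converted relative to resident (adjusted p = 0.0234; 0.0601 to 0.0935 without any 1 converted or resident library) and in resident relative to monocyte-derived libraries (adjusted p = 0.0366; 0.052 to 0.133 without any 1 library but monocyte-derived library 2). By DESeq2, without a filter and in a 2-group fit the last of these had 0.0661, 0.132 and 0.0567. Ctla4, an inhibitory receptor, was tested and not called, with 0.14 ± 0.151 CPM in converted, 0.866 ± 0.253 CPM in resident and 0.481 ± 0.592 CPM in monocyte-derived libraries (SD, n = 3 each).

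Lck, the kinase that starts TCR signalling, had 0.299, 0.577 and 0.618 CPM in converted, 4.45, 3.46 and 8.07 CPM in resident and 0.639, 0.693 and 2.2 CPM in monocyte-derived libraries. Its 3 resident values were above all others, and its converted values below the lowest monocyte-derived one. It fell in converted relative to resident libraries (log2 -3.41 ± 0.55 SE, adjusted p = 0.00774), a call that held with any 1 library left out, and rose in resident relative to monocyte-derived libraries (log2 2.20 ± 0.51 SE, adjusted p = 0.00473; log2 2.99 without monocyte-derived library 3). Zap70, the next kinase, had 0.398, 0 and 0 CPM in converted, 1.26, 0.838 and 1.61 CPM in resident and 0.373, 0.289 and 1.94 CPM in monocyte-derived libraries and was not called (adjusted p = 0.0788, 0.613 and 0.126 for converted over monocyte-derived, resident over monocyte-derived and converted over resident). Lat, the adaptor that both kinases feed and that mast cells and platelets also carry, had 0.0996, 0.577 and 0 CPM in converted, 1.15, 1.31 and 1.42 CPM in resident and 1.33, 2.83 and 1.42 CPM in monocyte-derived libraries. It fell in converted relative to monocyte-derived libraries (log2 -3.00 ± 0.73 SE, adjusted p = 0.00635), and was highest in monocyte-derived library 2, where the TCR genes were low. Its change was log2 -3.77 by limma-voom, and converted library 2 held 11 of its 13 converted reads (adjusted p = 0.00097 without it). For converted over resident libraries Lat was not called by edgeR (log2 -2.47, adjusted p = 0.084). Of Lck, Zap70 and Lat, edgeR called 1 lower in that comparison, while DESeq2 called 3 and limma-voom 3. At an unadjusted p under 0.05 edgeR gave 3 lower.

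The T-lineage factors Tcf7 and Bcl11b again had their highest mean in resident libraries. Tcf7, which encodes TCF-1, had 0.548, 1.21 and 0.281 CPM in converted, 5.5, 3.93 and 5.18 CPM in resident and 0.906, 0.173 and 0.906 CPM in monocyte-derived libraries, and was called for converted over resident (log2 -2.82 ± 0.53 SE, adjusted p = 0.0144; log2 -3.52 without converted library 2; adjusted p = 0.0569 to 0.0734 without converted library 1 or 3 or resident library 1 or 3) and for resident over monocyte-derived libraries (log2 2.87 ± 0.54 SE, adjusted p = 0.00152). Bcl11b, needed for T-cell commitment, had 0.195 ± 0.247 CPM in converted, 1.32 ± 0.596 CPM in resident and 0.61 ± 0.48 CPM in monocyte-derived libraries (SD, n = 3 each) and was not called. Il7r, the receptor chain for IL-7, went the other way. Il7r (ENSMUSG00000003882, GRCm38 chromosome 15, 9505788 to 9530176) had 0.847, 1.26 and 1.18 CPM in converted libraries 1, 2 and 3, 2.75, 1.26 and 2.93 CPM in resident libraries 1, 2 and 3, and 17.3, 86.1 and 62.4 CPM in monocyte-derived libraries 1, 2 and 3. All monocyte-derived libraries were above all others, and converted and resident libraries overlapped (adjusted p = 0.43). Il7r was 50.3-fold lower in converted (log2 -5.65 ± 0.63 SE, adjusted p = 7.20e-05) and 23.8-fold lower in resident than in monocyte-derived libraries (log2 -4.57 ± 0.58 SE, adjusted p = 0.000156), and both calls held with any 1 library left out. Its order within the monocyte-derived group, highest in library 2, was not that of the TCR, NK or granule sums, which were highest in library 3. Il7r made up 324 of 1358, 1491 of 2639 and 964 of 4719 reads of the set in monocyte-derived libraries 1, 2 and 3.

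**Figure D4:**
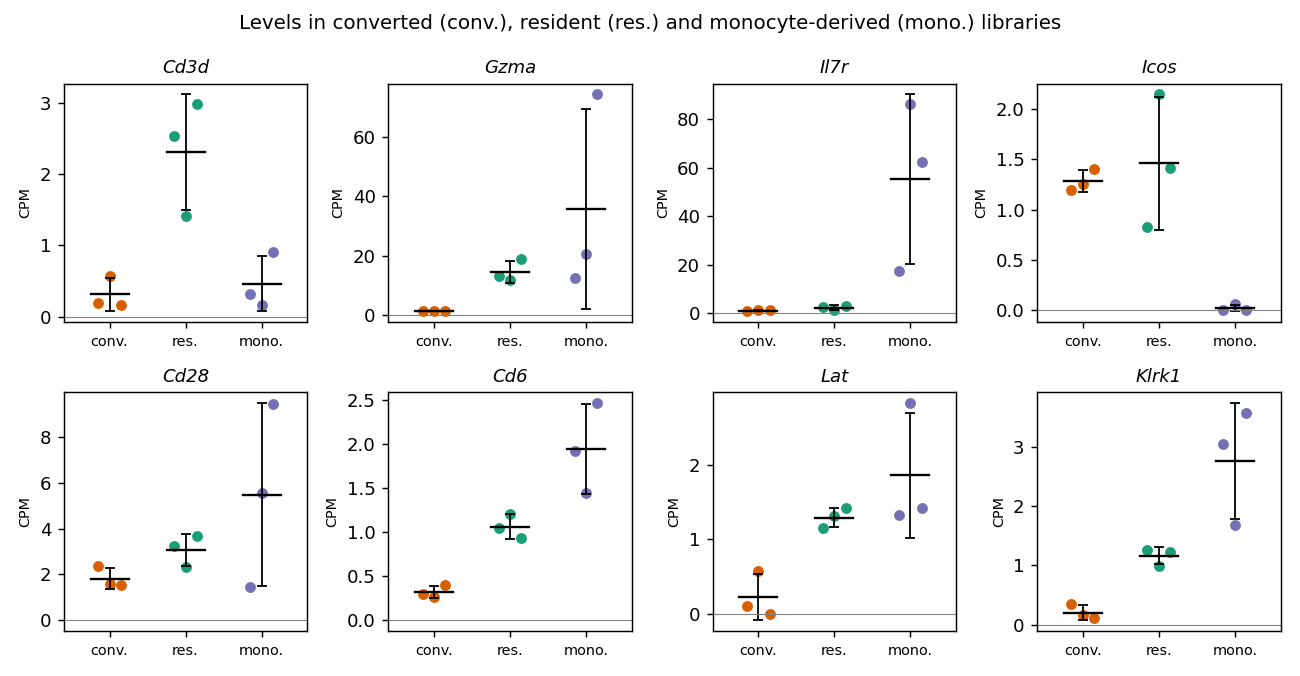
Level in CPM of 8 genes in each library, by group, with a bar at the mean and an error bar of 1 SD (n = 3). Cd3d is highest in resident libraries and Klrk1 in monocyte-derived ones. Gzma has its highest mean in monocyte-derived libraries, which overlap the resident ones. Il7r is high only in monocyte-derived libraries, and Icos lies at 0 to 0.0578 CPM in that group.

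NK receptor genes fell in converted relative to monocyte-derived libraries for all 3 genes tested and in resident relative to monocyte-derived libraries for the same 3. Klrk1 encodes NKG2D, a receptor for stress ligands that NK and CD8 T cells carry. It had 0.348, 0.157 and 0.112 CPM in converted libraries 1, 2 and 3, 1.26, 0.996 and 1.22 CPM in resident libraries 1, 2 and 3, and 3.04, 1.68 and 3.56 CPM in monocyte-derived libraries 1, 2 and 3, in an order without overlap between groups. Its change was log2 -3.67 ± 0.46 SE, adjusted p = 0.000117 for converted over monocyte-derived, log2 -1.24 ± 0.37 SE, adjusted p = 0.0188 for resident over monocyte-derived and log2 -2.43 ± 0.48 SE, adjusted p = 0.0176 for converted over resident libraries. Klrd1 encodes CD94, the partner chain of NKG2 receptors. It had 0.0498, 0 and 0.225 CPM in converted, 0.769, 0.629 and 0.734 CPM in resident and 2.61, 1.56 and 4.59 CPM in monocyte-derived libraries, and was called for converted (log2 -4.94 ± 0.70 SE, adjusted p = 0.000258) and resident (log2 -2.02 ± 0.52 SE, adjusted p = 0.00897) over monocyte-derived libraries. Klrb1c, which encodes the NK1.1 antigen, had 0.0498, 0.0525 and 0 CPM in converted, 0.824, 0.471 and 0.538 CPM in resident and 1.01, 0.808 and 4.08 CPM in monocyte-derived libraries, that is 2 reads over the converted and 35 over the resident libraries beside 96 over the monocyte-derived ones. It was lower in converted than in monocyte-derived libraries by 53-fold, with a 95% counting interval of 14.3 to 444 (adjusted p = 0.00088), and its resident call had an adjusted p of 0.0495. Klrb1c shares 413 exon bases with the predicted gene Gm44511. Ncr1, which encodes NKp46 and marks NK cells and some innate lymphoid cells, was below the filter: it had 1 read over the converted, 28 over the resident and 72 over the monocyte-derived libraries, 57 of the last in library 3.

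The converted calls of Klrk1, Klrd1 and Klrb1c against monocyte-derived libraries held with any 1 library left out. The log2 change of Klrk1 was then -4.27 without converted library 1. Klrd1 kept 1 converted read without converted library 3 (adjusted p = 0.000427), and Klrb1c kept 33 of its 96 monocyte-derived reads without monocyte-derived library 3 (adjusted p = 0.000562). The converted change of Klrb1c was log2 -4.46 without monocyte-derived library 3, against -5.54 with all libraries. Of the resident calls against the same group, that of Klrk1 ended without resident library 1, 2 or 3 or monocyte-derived library 3 (adjusted p = 0.0511 to 0.0735) and that of Klrb1c without any 1 library but monocyte-derived library 1 or 2 (0.0603 to 0.303), while Klrd1 kept its call. Without monocyte-derived library 3 the resident change of Klrb1c was log2 -0.58, against -1.66 with it. Klrb1c also had 0.116 by limma-voom, 0.0502 with DESeq2 size factors and 0.0817 in a 2-group fit. The Klrk1 call for converted over resident libraries ended without converted library 2 or 3 or resident library 1 or 3 (0.0647 to 0.0736), and its change was log2 -3.03 without converted library 1.

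The genes of cytotoxic granules, which hold the proteins that kill target cells, fell in converted relative to monocyte-derived libraries for all 4 genes. Gzma encodes granzyme A and was, per kilobase of exon, the most abundant of the 34 genes in monocyte-derived libraries. Gzma (ENSMUSG00000023132, GRCm38 chromosome 13, 113093825 to 113100981) had 1.34, 1.52 and 1.46 CPM in converted libraries 1, 2 and 3, 13.2, 11.7 and 18.7 CPM in resident libraries 1, 2 and 3, and 12.4, 20.6 and 74.1 CPM in monocyte-derived libraries 1, 2 and 3. Converted libraries were below all others, by 24.6-fold against monocyte-derived (log2 -4.62 ± 0.68 SE, adjusted p = 0.000391) and 10.1-fold against resident libraries (log2 -3.33 ± 0.67 SE, adjusted p = 0.0211), and resident and monocyte-derived libraries overlapped (adjusted p = 0.0768). Gzmb, granzyme B, had 0.0996, 0.63 and 0.225 CPM in converted, 3.3, 2.31 and 3.91 CPM in resident and 3.94, 3.46 and 33.2 CPM in monocyte-derived libraries, with converted libraries again lowest (log2 -5.38 ± 1.08 SE, adjusted p = 0.0024 for converted over monocyte-derived, and adjusted p = 0.127 for converted over resident). Prf1, the pore-forming perforin, had 0, 0.315 and 0.281 CPM in converted, 0.605, 0.471 and 0.831 CPM in resident and 1.01, 1.44 and 5.43 CPM in monocyte-derived libraries. It was called for converted (log2 -3.69 ± 0.86 SE, adjusted p = 0.00531) and resident (log2 -2.02 ± 0.73 SE, adjusted p = 0.0426) over monocyte-derived libraries. Nkg7, a granule membrane protein, had 0.647, 1.1 and 0.506 CPM in converted, 5.66, 4.24 and 5.67 CPM in resident and 2.45, 3.46 and 14.4 CPM in monocyte-derived libraries and was called for converted over monocyte-derived (log2 -3.14 ± 0.68 SE, adjusted p = 0.0038) and converted over resident libraries (log2 -2.77 ± 0.68 SE, adjusted p = 0.045). Monocyte-derived library 3 held 1146 of the 1735 Gzma reads, 514 of the 648 Gzmb reads and 222 of the 328 Nkg7 reads of its group. Without it the converted changes against this group were smaller for all 4 genes, at log2 -3.51, -3.52, -2.61 and -1.96 for Gzma, Gzmb, Prf1 and Nkg7. The calls stood at adjusted p = 1.93e-05, 0.000448, 0.0125 and 0.00145 for Gzma, Gzmb, Prf1 and Nkg7. The change of Gzmb was log2 -6.34 without converted library 2 and -4.75 by limma-voom, and that of Prf1 -3.09 without converted library 1.

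The remaining calls of granule genes were less stable. For converted over resident libraries, Gzma lost its call without converted library 1, 2 or 3 or resident library 1 or 3 (adjusted p = 0.0614 to 0.0869) and Nkg7 without any 1 converted or resident library (0.0865 to 0.146). By limma-voom and without a filter on low counts Gzma had 0.102 and 0.108, and Nkg7 0.0684 and 0.15. Prf1 for resident over monocyte-derived libraries lost its call without converted library 2 or 3, resident library 1, 2 or 3 or monocyte-derived library 3 (0.0544 to 0.225; log2 -0.94 in the last of these), by limma-voom (0.109) and without a filter (0.0636).

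The promoters of these 4 granule genes are shown beside those of Cd3d and Cd3g, since the first set had its highest means in monocyte-derived and the second in resident libraries. The windows run from 250 bases before to 50 bases after the start site in the RefSeq annotation of GRCm38.p6, 5′ to 3′ on the strand of the gene, with capitals for matches to TGTGGT (the core letters bound by RUNX factors), GGTGTGA (T-box factors) or CTTTGAA (TCF and LEF factors) on either strand. They lie at chr13:113100932-113101231 (minus strand) for Gzma, chr14:56262285-56262584 (minus strand) for Gzmb, chr10:61297586-61297885 (plus strand) for Prf1, chr7:43436888-43437187 (plus strand) for Nkg7, chr9:44981536-44981835 (plus strand) for Cd3d and chr9:44980382-44980681 (minus strand) for Cd3g.
Gzma: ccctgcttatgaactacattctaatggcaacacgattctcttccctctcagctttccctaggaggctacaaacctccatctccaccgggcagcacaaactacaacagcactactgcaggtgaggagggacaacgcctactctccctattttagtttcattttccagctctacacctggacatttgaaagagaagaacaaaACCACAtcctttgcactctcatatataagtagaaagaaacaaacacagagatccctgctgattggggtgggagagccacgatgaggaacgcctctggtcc
Gzmb: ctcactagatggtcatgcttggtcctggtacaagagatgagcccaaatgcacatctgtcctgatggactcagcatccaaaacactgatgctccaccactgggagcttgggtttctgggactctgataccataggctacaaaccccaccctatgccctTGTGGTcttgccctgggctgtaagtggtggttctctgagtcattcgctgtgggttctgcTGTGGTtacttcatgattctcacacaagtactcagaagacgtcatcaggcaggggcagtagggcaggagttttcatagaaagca
Prf1: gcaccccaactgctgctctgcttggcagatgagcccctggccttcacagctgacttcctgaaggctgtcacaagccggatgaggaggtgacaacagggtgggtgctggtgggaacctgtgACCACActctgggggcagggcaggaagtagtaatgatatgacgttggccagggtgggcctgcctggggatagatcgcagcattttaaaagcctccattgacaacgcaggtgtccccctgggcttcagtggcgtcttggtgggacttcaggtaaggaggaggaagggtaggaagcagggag
Nkg7: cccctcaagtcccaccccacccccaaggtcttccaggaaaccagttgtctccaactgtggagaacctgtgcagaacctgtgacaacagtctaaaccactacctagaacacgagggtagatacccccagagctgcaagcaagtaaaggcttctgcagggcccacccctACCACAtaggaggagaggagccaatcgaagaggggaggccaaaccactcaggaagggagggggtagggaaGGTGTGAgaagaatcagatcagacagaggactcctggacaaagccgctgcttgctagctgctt
Cd3d: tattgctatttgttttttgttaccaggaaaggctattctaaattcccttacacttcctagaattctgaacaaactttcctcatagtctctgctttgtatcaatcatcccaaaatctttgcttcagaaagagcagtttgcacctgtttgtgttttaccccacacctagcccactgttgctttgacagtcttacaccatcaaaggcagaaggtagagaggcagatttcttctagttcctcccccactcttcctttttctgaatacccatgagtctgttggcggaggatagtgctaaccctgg
Cd3g: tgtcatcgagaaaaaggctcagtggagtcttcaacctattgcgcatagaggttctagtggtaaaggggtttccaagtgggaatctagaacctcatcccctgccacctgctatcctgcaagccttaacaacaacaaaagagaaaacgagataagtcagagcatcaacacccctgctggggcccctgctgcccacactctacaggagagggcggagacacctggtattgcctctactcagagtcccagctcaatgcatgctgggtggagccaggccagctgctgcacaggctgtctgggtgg
TGTGGT or its reverse complement begins at position -50 of Gzma, -93 and -34 of Gzmb, -130 of Prf1 and -83 of Nkg7, counted from the start site, and neither CD3 window holds it. GGTGTGA begins at -13 of Nkg7 and no printed window has overlapping matches. Of 32851 RefSeq windows of the same length, 16.8% hold TGTGGT, 3.98% GGTGTGA and 5.14% CTTTGAA on either strand. Windows were found for 22 of the 34 genes, 27 in all because some genes have several start sites, and 12 of the 27 hold TGTGGT, 1 GGTGTGA and 1 CTTTGAA. The 12 belong to Zap70, Lck, Lat, Il7r, Klrb1c, Klrk1, Ncr1 (2 overlapping windows), Nkg7, Prf1, Gzma and Gzmb. A match is a run of letters and was not tested as a site.

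The T-box factor genes Eomes and Tbx21, the receptor chain gene Il2rb and the chemokine gene Ccl5 all fell in converted relative to monocyte-derived libraries, and each call held with any 1 library left out. Il2rb encodes the chain through which NK and T cells receive IL-2 and IL-15. It had 1.09, 2.15 and 1.29 CPM in converted libraries 1, 2 and 3, 11.4, 10.3 and 17.3 CPM in resident libraries 1, 2 and 3, and 10.1, 7.51 and 33.6 CPM in monocyte-derived libraries 1, 2 and 3. Converted libraries were lowest, and resident and monocyte-derived libraries overlapped (adjusted p = 0.551); the change was log2 -3.49 ± 0.60 SE, adjusted p = 0.00101 for converted over monocyte-derived and log2 -3.10 ± 0.60 SE, adjusted p = 0.0175 for converted over resident libraries. Eomes had 0.199, 0.472 and 0.337 CPM in converted, 2.86, 1.78 and 3.18 CPM in resident and 1.33, 1.79 and 5.11 CPM in monocyte-derived libraries, with the same pattern. It had log2 -3.00 ± 0.60 SE, adjusted p = 0.0021 for converted over monocyte-derived libraries. Against resident libraries the converted change was log2 -2.94 ± 0.60 SE, adjusted p = 0.0197. Tbx21, which encodes T-bet, had 0.149, 0.157 and 0.112 CPM in converted, 0.715, 0.681 and 1.27 CPM in resident and 0.693, 1.04 and 3.23 CPM in monocyte-derived libraries (adjusted p = 0.00228 for converted over monocyte-derived, 0.0689 for converted over resident). Ccl5, a chemokine that activated macrophages also make, had 0.249, 0.472 and 0.225 CPM in converted, 1.87, 2.41 and 1.96 CPM in resident and 2.88, 2.37 and 13.1 CPM in monocyte-derived libraries (adjusted p = 0.0011 and 0.0767), and 202 of its 297 monocyte-derived reads were in library 3. Without that library the converted over monocyte-derived changes of Il2rb, Eomes, Tbx21 and Ccl5 were log2 -2.54, -2.20, -2.56 and -3.03, against -3.49, -3.00, -3.48 and -4.23 with it. The converted over resident calls of Il2rb and Eomes ended without converted library 1 or 3 or resident library 1 or 3 (adjusted p = 0.0506 to 0.088), and that of Il2rb without a filter on low counts (0.0892). None of the 4 was called for resident over monocyte-derived libraries by edgeR: 1 had an unadjusted p under 0.05, DESeq2 called 1 and limma-voom 0. Without monocyte-derived library 3 the log2 changes of Nkg7, Eomes, Tbx21 and Il2rb in that comparison turned positive (0.81, 0.74, 0.05 and 0.56; adjusted p = 0.0544, 0.126, 0.933 and 0.155).

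The balance between NK and T transcripts lay further towards NK genes in each monocyte-derived library than in any other library. The summed level of the 8 NK receptor and granule genes was 1.16, 0.901 and 2.78 in converted, 1.63, 1.71 and 1.62 in resident and 8.96, 18.7 and 15.4 in monocyte-derived libraries 1, 2 and 3 times that of the 7 TCR and CD3 genes. The resident ratios lay within a narrow range, and the converted ratios spanned the resident ones, from sums of 18 to 81 TCR and CD3 reads per library. B-cell markers summed to 30.1, 40.5 and 77.1 in converted, 68.7, 97.3 and 71.1 in resident and 17.5, 18.8 and 8.2 in monocyte-derived libraries 1, 2 and 3 times the TCR and CD3 level, lowest in the monocyte-derived group and overlapping between converted and resident libraries. Within the converted group library 2 had both the highest TCR and CD3 sum, 4.25 CPM, and the highest B-cell marker sum, 172 CPM. Library 3 of the monocyte-derived group had the highest NK, TCR and neutrophil marker sums, the last being 1.74, 1.73 and 1.52 CPM in converted, 2.47, 0.891 and 1.32 CPM in resident and 11.8, 16.2 and 46.7 CPM in monocyte-derived libraries. The 5 dendritic cell markers summed to 4.68, 4.72 and 4.78 CPM in converted, 10.9, 10.6 and 13.2 CPM in resident and 28.1, 10.8 and 34.3 CPM in monocyte-derived libraries, in the order of the NK genes for the group means. Of these 5, Zbtb46, Ccr7, Flt3 and Siglech fell in converted and 3 (not Ccr7) in resident relative to monocyte-derived libraries, and monocyte-derived library 2 lay within the resident range for this sum. The part of other cell types in these values was not tested.

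**Figure D5:**
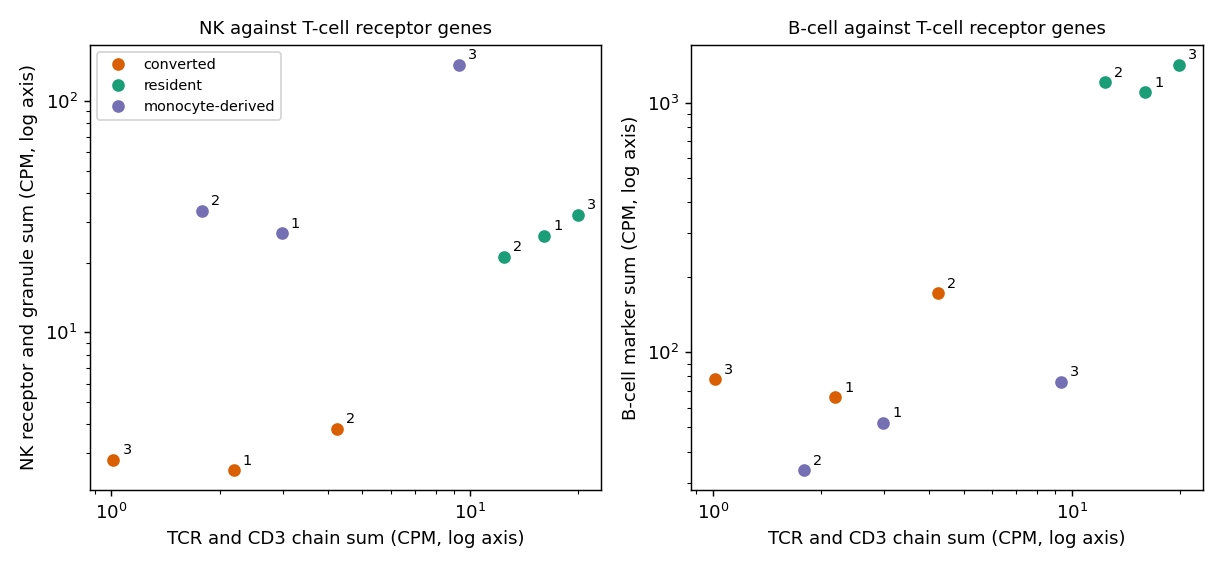
Summed level of the 8 NK receptor and granule genes (left) and of the 10 B-cell markers (right) against the summed level of the 7 TCR and CD3 genes, 1 numbered point per library, all axes logarithmic and in CPM. On the left the monocyte-derived points lie 8.96 to 18.7 times above equality; on the right the resident points lie apart at the upper right.

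Per kilobase of exon, which allows levels to be set beside each other between genes, Cd2 had a mean of 2.14 CPM per kilobase and Gzma 1.43 in converted libraries, the highest 2 of the set. In resident libraries Gzma had 14.5, Cd2 12.7, Nkg7 5.68, Trac 3.61 and Cd3d 1.27. In monocyte-derived libraries Gzma had 35.5, Il7r 11.8, Gzmb 9.44, Nkg7 7.39 and Trac 0.795. Granzyme A transcripts were thus denser than those of the TCR alpha constant gene in the means of all 3 groups.

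Other genes of both programmes, outside the set, were counted from lists chosen with earlier results of these data known. Of 25 further genes of TCR signalling and the T lineage 20 were tested. In converted relative to monocyte-derived libraries 9 fell and 2 rose (median log2 -1.52), in resident relative to monocyte-derived 7 rose and 3 fell (0.86), and in converted relative to resident 13 fell and none rose (-2.47). Over all genes tested the shares called lower were 24.9%, 24.9% and 4.26% in these comparisons, in this order. The shares called higher were 25.8%, 25.7% and 1.82%. Grap2, an adaptor of TCR signalling, had 0, 0.105 and 0.0562 CPM in converted, 1.15, 1.26 and 1.17 CPM in resident and 0.213, 0 and 0.0647 CPM in monocyte-derived libraries and was lower in converted than in resident libraries by 22.7-fold, with a 95% counting interval of 7.44 to 113 (adjusted p = 0.00928; 0.0529 and 0.0503 without converted or resident library 3). Grap2 passed the filter only through the resident group, so a difference from that group was bound to be found. Ikzf3, a factor of B and T lymphocytes, had 1.39, 2.68 and 1.07 CPM in converted, 21.4, 24.9 and 29.7 CPM in resident and 0.959, 0.578 and 2.33 CPM in monocyte-derived libraries (log2 -3.88 ± 0.43 SE, adjusted p = 0.00169 for converted over resident). Cd226, an adhesion receptor of NK and T cells, had 0.0498, 0.21 and 0 CPM in converted, 1.43, 0.786 and 1.86 CPM in resident and 4.85, 6.29 and 7.18 CPM in monocyte-derived libraries, in a stepwise order without overlap. It had log2 -6.01 ± 0.59 SE, adjusted p = 2.39e-05 for converted over monocyte-derived libraries. Against resident libraries the converted change was log2 -3.86 ± 0.65 SE, adjusted p = 0.00888. Converted library 2 held 4 of its 5 converted reads, and without it the adjusted p was 5.73e-05 and 0.00896. Itgal, the LFA-1 integrin chain of leukocytes, and Sh2d2a, an adaptor of T cells, were among the falls in converted relative to monocyte-derived libraries (log2 -3.74, adjusted p = 0.000113, and log2 -3.38, adjusted p = 0.00546; -1.96 for Sh2d2a without monocyte-derived library 3 and -2.73 by limma-voom). Ptpn22, a phosphatase that restrains TCR signalling, fell in resident relative to monocyte-derived libraries (log2 -1.22, adjusted p = 0.000259). Lcp2 and Prkcq, an adaptor and a kinase of this pathway, rose in converted relative to monocyte-derived libraries. Lcp2, which myeloid cells also use, had 338, 351 and 414 CPM in converted, 350.2, 362 and 343 CPM in resident and 230.4, 207 and 243 CPM in monocyte-derived libraries. Prkcq had 19.5, 23.6 and 17.2 CPM in converted, 34, 29.6 and 31.8 CPM in resident and 2.35, 0.982 and 6.47 CPM in monocyte-derived libraries, so each of the 3 resident and 3 converted libraries was above every monocyte-derived one for both genes.

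Of 34 further NK and cytotoxic genes 17 were tested. In converted relative to monocyte-derived libraries 12 fell and 3 rose (median log2 -3.05), in resident relative to monocyte-derived 3 fell and 3 rose (-0.47), and in converted relative to resident 4 fell and none rose (-2.52). Beside these counts, 24.9%, 24.9% and 4.26% of all genes tested were called lower and 25.8%, 25.7% and 1.82% higher. Sh2d1b1, which encodes the adaptor EAT-2, had 0.0498, 0.0525 and 0.0562 CPM in converted, 0.11, 0.419 and 0.489 CPM in resident and 8.37, 11.3 and 12.1 CPM in monocyte-derived libraries and was lower in converted than in monocyte-derived libraries by 198-fold, with a 95% counting interval of 67.5 to 965 (adjusted p = 1.29e-06). Serpinb9b, of the family of granzyme inhibitors, had 0.0498, 0 and 0 CPM in converted, 0.165, 0.105 and 0.0489 CPM in resident and 1.86, 10.7 and 22.2 CPM in monocyte-derived libraries (adjusted p = 0.000328 for converted over monocyte-derived and 0.000491 for resident over monocyte-derived). With 1 read over the converted libraries, it was 623-fold lower there than in monocyte-derived ones, with a 95% counting interval of 111 to 24650. Klrb1a, a lectin-like receptor, had 0.0498, 0 and 0 CPM in converted, 0.275, 0.105 and 0.196 CPM in resident and 1.44, 2.94 and 5.37 CPM in monocyte-derived libraries (adjusted p = 9.65e-05 and 0.000408). Its 1 read over the converted libraries gave a 178-fold lower level than in monocyte-derived ones, with a 95% counting interval of 31.5 to 7067. Sh2d1b1, Serpinb9b and Klrb1a passed the filter only through the monocyte-derived group, so a difference from that group was bound to be found. Cd7, Klre1 and Ifng were the 3 genes with the largest falls in converted relative to resident libraries (adjusted p = 0.0263, 0.044 and 0.0353), with 2, 2 and 3 reads over the converted libraries and 52, 39 and 48 over the resident ones. These genes were 25.6-, 19.2- and 15.8-fold lower, with 95% counting intervals of 6.75 to 217, 4.98 to 164 and 5.085 to 79.2. Each lost its call without any 1 converted or resident library (0.0558 to 0.159). The 3 genes that rose in both other groups relative to monocyte-derived libraries were Cd244a, which encodes the receptor 2B4, the sphingosine phosphate receptor gene S1pr5 and the cystatin gene Cst7. Cd244a had 211, 162 and 244 CPM in converted, 191, 189 and 190.3 CPM in resident and 34.4, 12.7 and 20 CPM in monocyte-derived libraries. S1pr5 had 60.9, 74.8 and 67.4 CPM in converted, 71.5, 74.1 and 69.1 CPM in resident and 3.52, 6.06 and 4.27 CPM in monocyte-derived libraries. Cst7 had 214, 239 and 370.1 CPM in converted, 339, 322 and 362 CPM in resident and 71.5, 35.6 and 51.2 CPM in monocyte-derived libraries, and the converted and resident libraries overlapped for each of these 3 genes.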

How the data were processed

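Total RNA of sorted macrophages was turned into libraries with the TotalScript kit for low input, per the labels' protocols. The authors deposited unnormalised counts of reads for each Ensembl gene. They used TopHat2 2.1.0, HTSeq and the build GRCm38, per the submitters' processing notes, while annotation, strand setting and handling of multi-mapping reads are not stated in the sources used here. Without a known strand setting, reads of overlapping and antisense genes cannot be told apart. Of 47729 identifiers 47310 matched GENCODE M21. Summary lines that name no gene were left out; reads in no gene made up 4.02% to 5.66% and ambiguous reads 4.47% to 4.68% of a file. No 2 libraries of a group agreed within sampling noise (the lowest chi-square per degree of freedom was 5.99), and each counts as 1 sample.

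Counts were filtered with filterByExpr (minimum count 10, minimum total 15), scaled by TMM and tested with edgeR 4.0.16 (R 4.3.3; robust quasi-likelihood, 9 libraries in 1 fit, 6 residual degrees of freedom), with Benjamini-Hochberg adjustment over 13223 genes; calls required an adjusted p under 0.05. The fit was tested on simulated data. Alternatives were DESeq2 1.42.0, limma-voom (limma 3.58.1), other scalings, no filter, 2-group fits, the replicate number as a block and each library left out. Where a group had 1 to 3 reads, ratios of summed reads with exact 95% intervals are given, which cover counting error only. The members, lists, role groups and naming rule (every member; of other lists up to 3 called genes per direction with the largest change) were chosen with earlier results of these data known. Cd4, Cd5, Thy1 and Ncr1 are given as reads. The motifs were chosen after the counts were seen. ATAC-seq data were not analysed here.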

Additional observations from a re-analysis of the deposited data

How the results depend on the processing

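The 15 genes called lower and 1 higher in converted relative to monocyte-derived libraries stayed within 14 to 18 and at 1 under every alternative. For converted relative to resident libraries the 15 called lower became 24 by DESeq2, 26 in a 2-group fit and 8 in a fit with a replicate block, and 1 to 22 with 1 library left out; 0 were called higher under each. The 2-group fit drops the monocyte-derived libraries. For resident relative to monocyte-derived libraries 6 to 14 genes were called higher and 2 to 10 lower with 1 library left out. The block does not rest on a known pairing: libraries with the same number had correlated deviations from their group means of -0.115 to 0.1, and in no comparison was every pair above 0.1, and the blocked fit called 10 higher and 4 lower for resident over monocyte-derived and 15 lower for converted over monocyte-derived libraries.

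The mean summed level of the 34 genes was 19.2 CPM in converted, 114.1 CPM in resident and 176.7 CPM in monocyte-derived libraries. Without monocyte-derived library 3 that group's mean was 112.4 CPM, below the resident one. Without Ccl5, Il7r, Cd2, Cd5 and Lat the means were 13.76, 85.55 and 106.2 CPM in converted, resident and monocyte-derived libraries, and without Il7r alone 18.1, 111.8 and 121.4 CPM.

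Changes of direction among single genes concerned values not called. For converted over monocyte-derived libraries the log2 change of Cd8a was -0.039 by limma-voom and -2.26 to 1.93 with 1 library left out, and that of Tcf7 -0.016 on library totals alone and -0.64 to 0.41 with 1 left out. For resident over monocyte-derived libraries Nkg7 had 0.11 by limma-voom, and Eomes 0.18 by limma-voom and 0.087 with the block. With 1 library left out the range for converted over monocyte-derived libraries was Cd3d -1.27 to 0.34, Cd3e -1.11 to 1.08, Cd3g -1.97 to 0.046, Cd8b1 -0.47 to 2.02, Trac -1.20 to 0.15 and Ctla4 -2.97 to 0.017. With 1 library left out the range for resident over monocyte-derived libraries was Nkg7 -0.77 to 0.81, Eomes -0.39 to 0.74, Tbx21 -1.24 to 0.048 and Il2rb -0.72 to 0.56. With 1 library left out the range for converted over resident libraries was Icos -0.47 to 0.19. The cause of these shifts was not tested. Levels under 1 CPM rest on fewer than about 20 reads per library, which limits what these depths can show.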

Other observations

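Markers of rarer lymphocytes did not move as 1 block. The transcription factor of regulatory T cells, Foxp3, had 3 reads over the converted, 5 over the resident and 2 over the monocyte-derived libraries. Gata3, a factor of type 2 helper and group 2 innate lymphoid cells, had 5 reads over the converted, 31 over the resident and 15 over the monocyte-derived libraries. The type 2 cytokine genes Il5 and Il13 had 0 reads in all 9 libraries. Tnfrsf18, a receptor of regulatory and activated T cells, had 0.996, 1.16 and 0.956 CPM in converted, 1.04, 2.62 and 1.71 CPM in resident and 5.06, 1.44 and 3.23 CPM in monocyte-derived libraries and fell in converted relative to monocyte-derived libraries (log2 -1.65 ± 0.47 SE, adjusted p = 0.0154). That call ended without converted library 3 or monocyte-derived library 1 (adjusted p = 0.0512 and 0.0541). Sox13, a factor of gamma-delta T cells, had 2.39, 1.94 and 0.506 CPM in converted, 2.86, 3.14 and 2.35 CPM in resident and 0.266, 0.173 and 0 CPM in monocyte-derived libraries. It rose in converted (log2 3.35 ± 0.74 SE, adjusted p = 0.00371) and resident (log2 4.12 ± 0.72 SE, adjusted p = 0.000943) relative to monocyte-derived libraries. Its 8 monocyte-derived reads were 5 in library 1 and 3 in library 2, and both calls held with any 1 library left out. Trdc, the constant gene of the TCR delta chain, had 6 reads over the converted, 19 over the resident and 28 over the monocyte-derived libraries, 23 of the last in library 3. Il1rl1, the IL-33 receptor gene that stands on the list of group 2 innate lymphoid cells, held most reads of that list (3264 of 3302 in converted library 1), with 162, 225 and 262 CPM in converted, 219, 255 and 225 CPM in resident and 54, 93 and 95.4 CPM in monocyte-derived libraries. It rose in converted (log2 1.42 ± 0.23 SE, adjusted p = 0.000686) and resident (log2 1.53 ± 0.23 SE, adjusted p = 0.000457) relative to monocyte-derived libraries.

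Mast cell markers were also lowest in converted libraries, with sums of 0.996, 2.78 and 1.01 CPM in converted, 7.75, 11.7 and 7.38 CPM in resident and 7.78, 6.82 and 16 CPM in monocyte-derived libraries over 6 genes. Cpa3, the mast cell carboxypeptidase gene, had 0.249, 0.892 and 0.225 CPM in converted, 1.32, 3.72 and 2.15 CPM in resident and 1.76, 1.79 and 2.78 CPM in monocyte-derived libraries. Kit, the stem cell factor receptor gene, had 0 reads over the converted, 32 over the resident and 57 over the monocyte-derived libraries. It was at least 10.5-fold lower in converted than in resident and at least 21-fold lower in converted than in monocyte-derived libraries, taking 3 reads over the 3 converted libraries as the floor. That floor covers counting error only. By edgeR the difference from resident libraries was not called (adjusted p = 0.0639), while that from monocyte-derived libraries was (adjusted p = 0.00368).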
